A study of Mus musculus with 14 samples.

Results

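Fam81a, Tex15, Rgs13 and Phex were followed as 4 named genes among the 34753 genes with at least 1 count in the RNA-seq data of mouse granulosa cells (GCs). They were picked by name and read from the count table through their Ensembl identifiers. The difference between ob/ob and CT ob was known when they were picked, so the values of these 4 genes in the CT ob or ob/ob libraries are a description without a p-value. For them the test was kept for db/db against CT db, while their neighbours and relatives were tested in both models. All 4 genes passed the filter on low counts in both models.

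The GCs came from antral follicles of female mice on chow diet, kept until 12 wk of age. In the db model, 4 libraries came from db/db mice of the strain B6.BKS(D)-Leprdb/J, which lack the long form of the leptin receptor Lepr, and 4 from lean littermates (CT db). In the ob model, 3 libraries came from ob/ob mice of the strain B6.Cg-Lepob/J, which lack leptin (Lep), and 3 from their lean littermates (CT ob). The mutations are present in every cell of the mouse, not in GCs alone, and strain and model cannot be told apart when groups of different models are compared. Whether these littermates were wild type, as the labels have it, or heterozygous, as the column names of the table read, remained unsettled. Each library was made from about 50 cells that had been released by puncture of the ovaries and separated from the oocytes. No source used here says whether the libraries of a group were from separate animals, so p-values cover the spread between libraries, which may be technical. Libraries are numbered within a group in the order of the count table.

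GCs surround the oocyte, respond to follicle-stimulating hormone through the G protein-coupled receptor Fshr and supply oestradiol and anti-Müllerian hormone (Amh). Rgs13 encodes a regulator of G protein signalling, which speeds up the hydrolysis of GTP by G alpha subunits and so shortens the signal of G protein-coupled receptors, and it is best known from germinal centre B cells and mast cells. Phex encodes an X-linked membrane peptidase of the neprilysin (M13) family, best known from bone and teeth, where its loss causes phosphate wasting with raised FGF23. Tex15 is known from germ cells, where it is needed for meiotic recombination and for the silencing of transposable elements in the male germline. Fam81a encodes a coiled-coil protein found at the postsynaptic density of neurons.

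The 4 genes are protein coding and lie on 4 different chromosomes (GRCm39). Fam81a (ENSMUSG00000032224) is on the minus strand of chromosome 9 from 69995772 to 70049842, and Tex15 (ENSMUSG00000009628) is on the plus strand of chromosome 8 from 34006766 to 34075610. Rgs13 (ENSMUSG00000051079) is on the minus strand of chromosome 1 from 144014392 to 144053110, and Phex (ENSMUSG00000057457) is on the minus strand of chromosome X from 155945071 to 156198308. Counts were taken over whole genes, so exons, introns and transcript forms were not separated.

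Sequences upstream of the start were found in the RefSeq promoter table (GRCm38.p6) for 3 of the 4 genes, Fam81a, Rgs13 and Phex. They are shown because the genes had their lowest levels in the same libraries, and each is written 5′ to 3′ on the strand of the gene. Capitals mark every match, on either strand, to GATAA, to CANNTG (E-box) or to GGGCGG (GC box). The lines start 250 bases before the start. For Fam81a and Phex they leave out the 30 bases next to the start, because the GENCODE annotation begins some transcripts there.
Fam81a, chr9:70141588-70141807, minus strand: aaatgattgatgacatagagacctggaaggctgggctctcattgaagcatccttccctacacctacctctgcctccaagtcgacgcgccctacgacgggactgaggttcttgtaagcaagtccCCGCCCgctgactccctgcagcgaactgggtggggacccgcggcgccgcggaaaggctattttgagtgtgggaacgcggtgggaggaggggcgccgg
Rgs13, chr1:144177373-144177622, minus strand: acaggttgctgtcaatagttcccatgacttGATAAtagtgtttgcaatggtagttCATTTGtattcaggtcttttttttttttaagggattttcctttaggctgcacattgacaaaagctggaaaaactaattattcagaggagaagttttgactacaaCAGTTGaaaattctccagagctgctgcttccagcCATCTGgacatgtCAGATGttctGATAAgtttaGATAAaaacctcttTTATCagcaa
Phex, chrX:157415317-157415536, minus strand: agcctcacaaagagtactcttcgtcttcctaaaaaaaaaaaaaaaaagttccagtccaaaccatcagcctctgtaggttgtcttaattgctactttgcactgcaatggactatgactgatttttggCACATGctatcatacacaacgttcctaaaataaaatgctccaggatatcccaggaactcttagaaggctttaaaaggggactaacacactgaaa

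The 3 upstream sequences had little in common. In the full 250 bases, the GC content was 64.4% for Fam81a, 36.0% for Rgs13 and 39.2% for Phex, beside a median of 52.4% over all 32851 promoters of the table. Rgs13 held 4 matches to GATAA, 3 of them in the last 34 bases before the start, and 4 matches to CANNTG, which reads the same on both strands. Of all promoters, 22.6% held at least 1 GATAA and 0.7% held at least 3, while 66.2% held CANNTG. Fam81a held 1 GGGCGG, as did 32.7% of promoters, and Phex held 1 CANNTG. No match to TTCNNNGAA (STAT), CAAGGTCA (NR5A), TGACGTCA (cyclic AMP response element) or GTAAACA (forkhead O) was found in the 3 windows. These occurred in 7.0%, 1.3%, 1.5% and 3.2% of promoters. The letters TATAAA, held by 12.4% of promoters, were not found either. The matches to the motifs did not overlap each other.

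Library totals were 2204686 to 3059777 counts for db/db and 3624237 to 4840714 counts for CT db. For ob/ob they were 5306632 to 8367593 counts, and for CT ob 3664219 to 4847166 counts. Levels are CPM, that is counts scaled to a common library total after TMM normalization, and the detection limit of 3 counts was 0.369 to 1.30 CPM. This limit is a fixed number of counts. No molecular identifiers were used, so it does not cover noise from amplification. The mutated genes could not check the labels, since Lep had 0 to 3 counts and Lepr 0 to 17 counts in any library. The GC markers Foxl2, Fshr and Amh were found in all libraries, with at least 53.7, 36.4 and 40.0 CPM, while the leukocyte gene Ptprc had at most 10 counts.

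All 4 genes had their lowest levels in CT ob. Each of the 3 CT ob libraries was below each of the 11 other libraries for Fam81a, Tex15, Rgs13 and Phex alike. In bulk libraries, fewer cells of a type and less RNA per cell cannot be told apart. Of the 12586 genes tested in 1 fit of all libraries, 3.74% showed this order. Since the genes were chosen with the ob/ob against CT ob difference known, nothing is read from their share. The plot of levels by library shows the order and the spread.

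**Figure D1:**
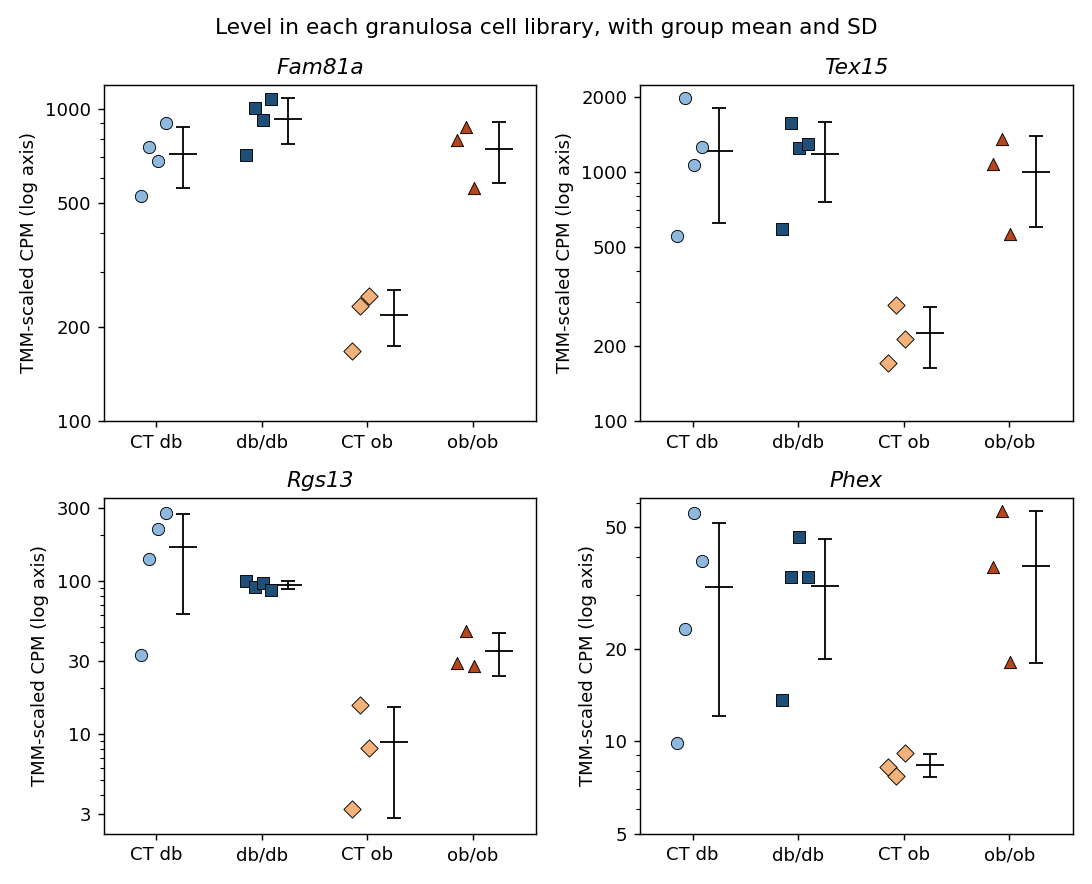
Level of Fam81a, Tex15, Rgs13 and Phex in TMM-scaled CPM (log axis) in each library of CT db, db/db, CT ob and ob/ob, with the group mean and SD as black bars. The CT ob points lie lowest in all 4 panels, and the db/db points of Rgs13 lie within 87.8 to 100 CPM.

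Fam81a was abundant, with a mean of 676 CPM over the 14 libraries and 740 to 6301 counts per library. Per kb of its merged exons it reached 126 CPM, rank 166 of 12555 genes. Its level was 526, 758, 679 and 901 CPM in CT db libraries 1 to 4, and 711, 1009, 924 and 1074 CPM in db/db libraries 1 to 4. The db/db values overlapped the upper part of the CT db range. In the ob model, the level was 168, 234 and 252 CPM in CT ob and 796, 873 and 560 CPM in ob/ob libraries 1 to 3. The ob/ob values lay within the range of the db model, and the CT ob values lay below it. The group means were 929 ± 158 CPM in db/db (SD, n = 4), 743 ± 163 in ob/ob (SD, n = 3), 716 ± 157 in CT db (SD, n = 4) and 218 ± 44.4 in CT ob (SD, n = 3). In this order, db/db and ob/ob overlapped, as did ob/ob and CT db, and only CT ob stood apart from its neighbour. The coefficient of variation was 17.0% to 22.0% in the 4 groups, close to the median gene, which had 19.9% to 26.1%.

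Tex15, although known from germ cells, was the most abundant of the 4 in CPM, with a mean of 943 CPM and 626 to 9742 counts per library. Per kb it reached 98.0 CPM, rank 251 of 12555 genes. The level was 554, 1971, 1065 and 1253 CPM in CT db libraries 1 to 4, and 587, 1570, 1245 and 1292 CPM in db/db libraries 1 to 4. Library 1 was the lowest of both groups, by a wide gap. The level was 171, 293 and 213 CPM in CT ob and 1073, 1349 and 565 CPM in ob/ob libraries 1 to 3. The lowest ob/ob library, number 3, was close to the lowest CT db and db/db libraries. Group means were 1211 ± 587 CPM in CT db (SD, n = 4), 1174 ± 417 in db/db (SD, n = 4), 996 ± 398 in ob/ob (SD, n = 3) and 226 ± 62.0 in CT ob (SD, n = 3). CT db, db/db and ob/ob overlapped one another, and CT ob lay below them. Tex15 varied more within groups than Fam81a, with coefficients of variation of 27.5% to 48.4%. In CT db, 85.6% of genes varied less than Tex15.

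Rgs13 had a mean of 84.5 CPM and 17 to 1027 counts per library, and per kb it reached 51.1 CPM, rank 567 of 12555 genes. It was measured at 32.9, 141, 221 and 280 CPM in CT db libraries 1 to 4. The values in db/db libraries 1 to 4 were 100, 91.6, 97.9 and 87.8 CPM, all inside the wide CT db range. CT ob libraries 1 to 3 had 3.26, 15.5 and 8.16 CPM, from 17, 62 and 24 counts, and ob/ob libraries 1 to 3 had 29.2, 47.4 and 28.1 CPM. Rgs13 was thus above the detection limit in all libraries, with the fewest reads in CT ob. Group means were 169 ± 107 CPM in CT db (SD, n = 4), 94.4 ± 5.67 in db/db (SD, n = 4), 34.9 ± 10.8 in ob/ob (SD, n = 3) and 8.95 ± 6.13 in CT ob (SD, n = 3). CT db and db/db overlapped, while ob/ob lay below all db/db libraries and CT ob below all ob/ob libraries. The ob/ob range overlapped CT db through CT db library 1 alone. The spread of Rgs13 differed widely between groups. Its coefficient of variation was 63.5% in CT db and 6.01% in db/db, the latter from 213 to 281 counts per library. In db/db only 3.73% of genes varied less than Rgs13, and in CT db 91.9% did.

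Phex was the least abundant, with a mean of 28.1 CPM and 27 to 408 counts per library, and per kb it reached 4.46 CPM, rank 6434 of 12555 genes. CT db libraries 1 to 4 had 9.85, 23.2, 55.5 and 38.8 CPM of Phex, and db/db libraries 1 to 4 had 13.6, 34.4, 46.3 and 34.4 CPM. Library 1 was again the lowest of both groups. The level was 8.24, 7.72 and 9.18 CPM in CT ob and 37.1, 56.5 and 18.1 CPM in ob/ob libraries 1 to 3. CT ob, with 43, 31 and 27 counts in libraries 1 to 3, had a coefficient of variation of 8.80% and lay just below CT db library 1. With so few counts the counting error is large, so nothing is read from this narrow spread. Group means were 37.2 ± 19.2 CPM in ob/ob (SD, n = 3), 32.2 ± 13.6 in db/db (SD, n = 4), 31.8 ± 19.7 in CT db (SD, n = 4) and 8.38 ± 0.738 in CT ob (SD, n = 3). The first 3 groups overlapped one another, and CT ob lay apart by a gap smaller than the spread within CT db.

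None of the 4 genes passed the threshold between db/db and CT db in the quasi-likelihood test of edgeR, adjusted by Benjamini-Hochberg over 11317 genes. This test called 0% of genes higher and 0.00884% lower, namely Sfrp4 alone, with 859 genes at an unadjusted p under 0.05. On the log2 scale, the difference db/db minus CT db was 0.37 for Fam81a (SE 0.188, edgeR adjusted p = 0.680) and -0.84 for Rgs13 (SE 0.447, edgeR adjusted p = 0.684). It was -0.05 for Tex15 (SE 0.357, edgeR adjusted p = 0.980) and 0.01 for Phex (SE 0.452, edgeR adjusted p = 0.996). The exact two-sided permutation test of the CPM, not on the log2 scale, of 4 against 4 libraries gave p = 0.114 for Fam81a, 0.971 for Tex15, 0.314 for Rgs13 and 1 for Phex. The smallest p this test allows is 0.0286. With every gene of at least 1 count in the fit, Rgs13 was called (log2 difference -0.87, edgeR adjusted p = 0.000308) as 1 of 270 genes, and with DESeq2 none of the 4 was among 44 genes called. Leaving out single libraries moved the log2 difference from -0.29 to 0.29 for Tex15, which was positive without db/db library 1 (0.17) or CT db library 2 (0.29), and from -0.28 to 0.41 for Phex, so that neither had a stable direction. Phex was negative without db/db library 2 (-0.02), 3 (-0.21) or 4 (-0.02) or CT db library 1 (-0.28) or 2 (-0.11). In the ob model the same test called 0% of 12425 genes in either direction, with 1014 genes at an unadjusted p under 0.05 and 86 genes called by DESeq2.

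In the ob model the 4 genes were higher in each ob/ob library than in each CT ob library, an order that 8.20% of the 12425 genes tested there showed. As the genes were picked with this contrast known, it stands as a description. The ratio of mean CPM, ob/ob over CT ob, was 3.41 for Fam81a, 4.41 for Tex15, 3.89 for Rgs13 and 4.44 for Phex. The fitted log2 differences were 1.76 (SE 0.256), 2.14 (SE 0.357), 1.96 (SE 0.515) and 2.15 (SE 0.418) in the same order. The 4 differences lay within 1 standard error of Rgs13 of one another. A similar size can follow from how the genes were picked, so nothing is read from it. The genes differed in where the ob/ob level came to lie among the other groups.

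**Figure D2:**
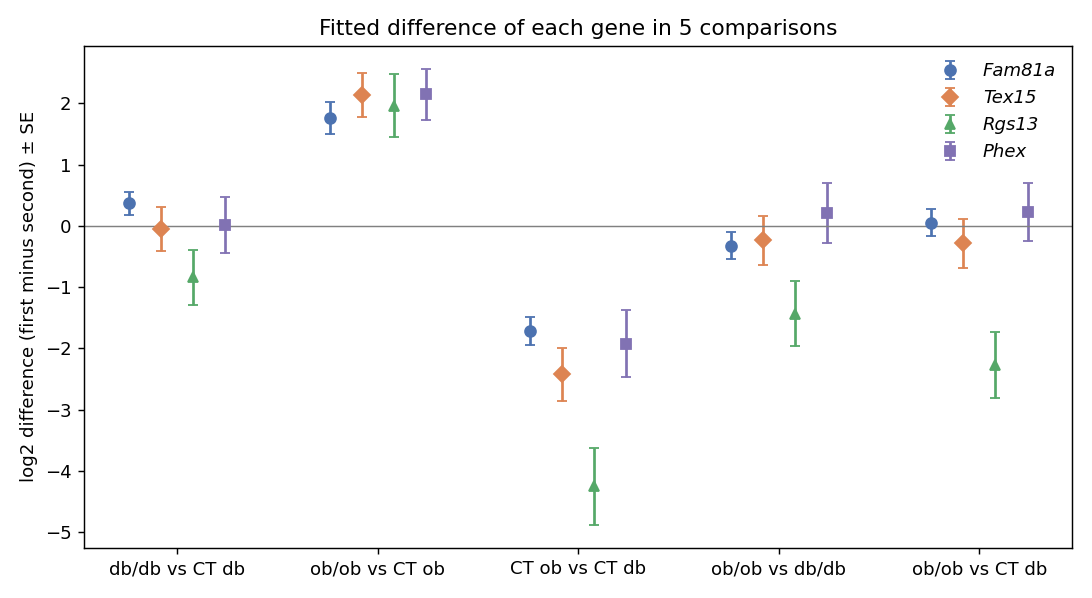
Fitted log2 difference (first group minus second) of Fam81a, Tex15, Rgs13 and Phex in 5 comparisons, with bars of ± 1 SE from edgeR. In ob/ob against CT ob the genes lie between 1.76 and 2.15, while Rgs13 lies apart from the other genes in the comparisons across models, down to -4.25 in CT ob against CT db.

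The low side of the ob comparison was CT ob. Against CT db, the mean CPM in CT ob was 3.29-fold lower for Fam81a, 5.36-fold lower for Tex15, 18.8-fold lower for Rgs13 and 3.80-fold lower for Phex. The fitted log2 differences, CT ob minus CT db, were -1.71 (SE 0.233), -2.42 (SE 0.433), -4.25 (SE 0.627) and -1.92 (SE 0.542). Every CT ob library was below every CT db library for 11.4% of the 12586 genes of this fit. This comparison shares the CT ob libraries with the one that chose the genes.

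For Fam81a, Tex15 and Phex, ob/ob was near both groups of the db model. The log2 difference ob/ob minus db/db was -0.32 (SE 0.221) for Fam81a, -0.24 (SE 0.399) for Tex15 and 0.21 (SE 0.484) for Phex. Against CT db it was 0.05 (SE 0.220), -0.28 (SE 0.399) and 0.23 (SE 0.479). Rgs13 went another way, with -1.43 (SE 0.528) against db/db and -2.27 (SE 0.541) against CT db. It was 2.71-fold lower in ob/ob than in db/db by mean CPM, with no overlap, an order found in 4.38% of genes. Between ob/ob and CT db the Rgs13 values overlapped.

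Within groups, the 4 genes partly shared their lowest libraries. In CT db, library 1 was lowest for all 4, and in ob/ob library 3 was lowest for all 4, although by 28.1 against 29.2 CPM for Rgs13. Library 1 of db/db was lowest for Fam81a, Tex15 and Phex, by 0.37, 0.91 and 1.09 below the group mean of log2 CPM, and highest for Rgs13. CT ob library 1 was lowest for Fam81a, Tex15 and Rgs13, while its Phex level lay between the other two. The highest library of ob/ob was number 2 for all 4 genes. In the other 3 groups no single library was highest for more than 2 of the 4 genes.

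**Figure D3:**
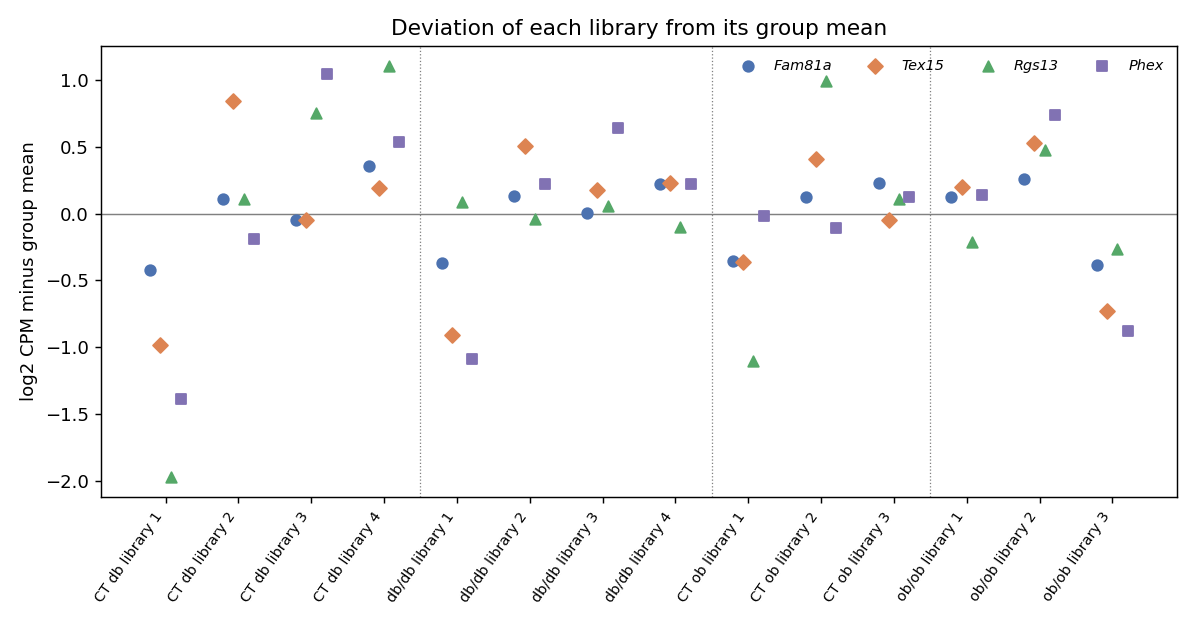
Deviation of log2 CPM from the group mean in each library for Fam81a, Tex15, Rgs13 and Phex, with dotted lines between groups. All 4 genes lie below the mean in CT db library 1, CT ob library 1 and ob/ob library 3, and 3 of 4 do in db/db library 1.

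Across the 14 libraries, the deviations of Fam81a and Tex15 from their group means had a Pearson r of 0.84. The other pairs had 0.71 (Fam81a and Phex), 0.70 (Tex15 and Phex), 0.67 (Fam81a and Rgs13), 0.62 (Rgs13 and Phex) and 0.57 (Tex15 and Rgs13). All 6 values were positive, and they are descriptions, as libraries share their depth and scaling. Among 12585 other genes, Tex15 ranked 33 in likeness to Fam81a by this measure, and Fam81a ranked 104 in likeness to Tex15. By another measure, Pearson's r of log2 CPM with group means left in, the ranks were 912 and 852 in the 8 db libraries. These libraries did not choose the genes. Both the measure and the libraries differ from those of the first ranks, so the ranks are not compared. For deviations, r of Fam81a and Tex15 was 0.84 among the db and 0.87 among the ob libraries. Rgs13 and Phex had 0.75 among the db and 0.26 among the ob libraries. Without CT db library 1, the r of deviations fell to 0.24 for Tex15 and Rgs13 and to 0.25 for Rgs13 and Phex.

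The relation was tested in the 8 libraries of the db model, whose values did not choose the genes, for all 6 pairs. No pair passed the Benjamini-Hochberg adjustment over the 6 pairs. None passed for deviations from group means in these libraries either, with r of 0.52 to 0.84 and a lowest permutation adjusted p of 0.0659. By that measure Fam81a and Rgs13 had r of 0.66 (permutation, adjusted p = 0.0837). Pearson's r of log2 CPM was 0.67 for Fam81a and Tex15 (two-sided permutation p = 0.0723, adjusted p = 0.141), with a Spearman rho of 0.69 (permutation p = 0.0694, adjusted p = 0.416). Without the 2 libraries farthest from the median of Fam81a, r was 0.45. For Rgs13 and Phex, r was 0.69 (permutation p = 0.0560, adjusted p = 0.141) and rho was 0.52 (permutation p = 0.197, adjusted p = 0.590), and r was 0.35 without CT db libraries 1 and 4. Both relations thus rested in part on the libraries left out. Without CT db library 2, r of Fam81a and Tex15 rose to 0.86 (permutation, adjusted p = 0.05).

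For Tex15 and Phex, r was 0.66 (permutation p = 0.0703, adjusted p = 0.141) and rho was 0.19 (permutation p = 0.665, adjusted p = 0.703). Without db/db library 1 and CT db library 1, r turned to -0.94, so that the positive relation rested on these libraries, which were low for both genes. Fam81a and Phex had r of 0.64 (permutation p = 0.0937, adjusted p = 0.141) and rho of 0.29 (permutation p = 0.501, adjusted p = 0.703), and 0.29 without the 2 farthest libraries. Rgs13 had r of 0.34 with Fam81a (permutation p = 0.405, adjusted p = 0.405) and 0.50 with Tex15 (permutation p = 0.217, adjusted p = 0.260). Its rho was -0.17 with Fam81a and 0.17 with Tex15 (adjusted p = 0.703 for both by permutation), and without the 2 farthest libraries r was -0.27 and -0.32. Without CT db library 3, r of Fam81a and Phex rose to 0.90 (permutation, adjusted p = 0.0357), and without CT db library 1, that of Fam81a and Rgs13 turned to -0.43. Within each group of the db model there are only 4 libraries, too few for a value of its own.

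**Figure D4:**
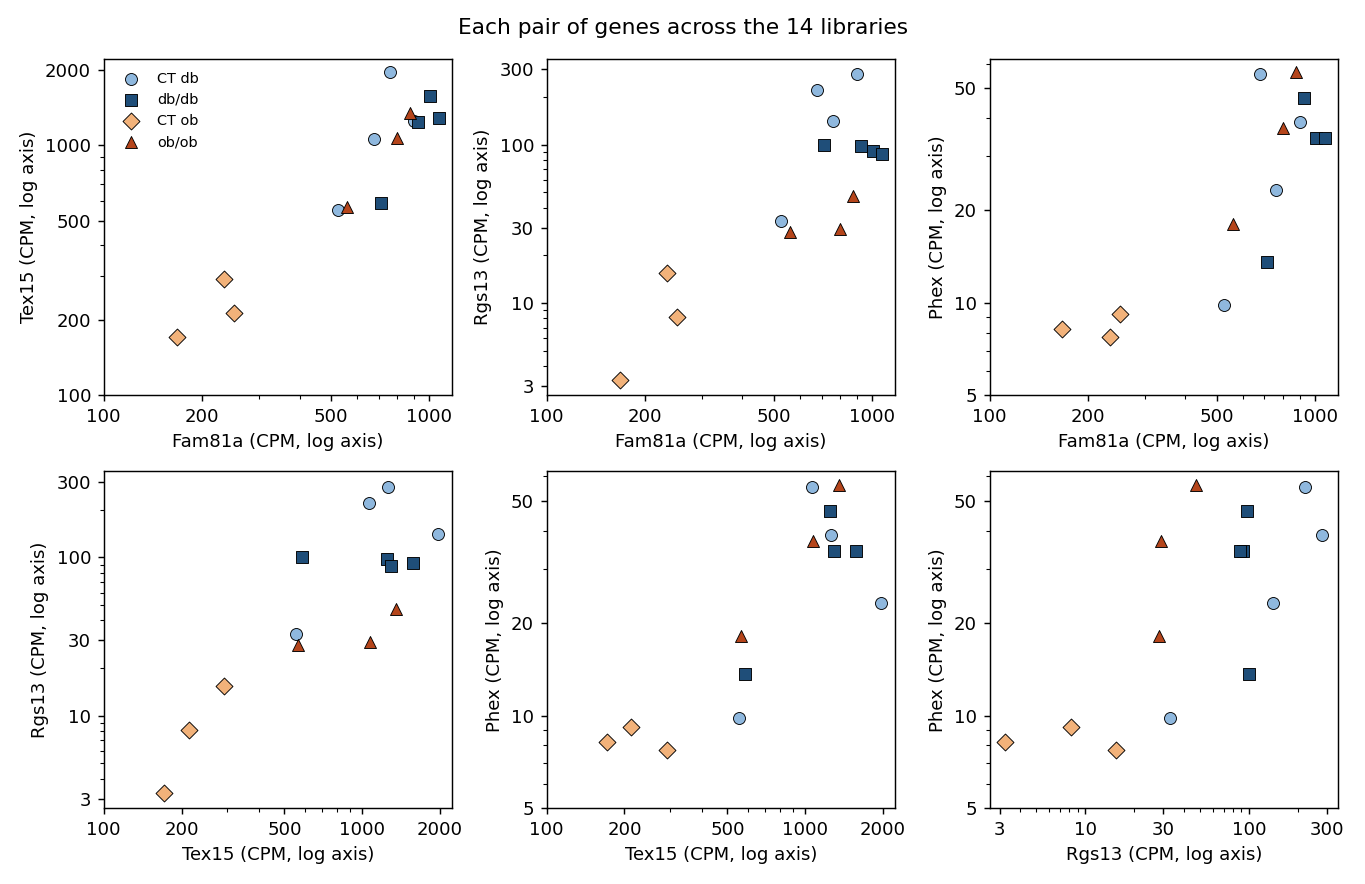
Levels of each pair of the 4 genes in CPM (both axes log) in the 14 libraries, marked by group. CT ob lies at the low end of every panel. Over all 14 libraries Fam81a and Tex15 had the highest Pearson r of log2 CPM, 0.94. That value takes in the CT ob and ob/ob libraries, with which the genes were picked. In the 8 db libraries r was 0.67 for this pair and 0.69 for Rgs13 and Phex.

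The genes whose log2 CPM was most like that of the 4 over the 14 libraries also had their lowest mean in CT ob. The low CT ob values of the 4 genes enter this r, so that order is largely fixed by the ranking. Next to Fam81a were the long non-coding RNA 8030451A03Rik (Pearson r = 0.95), Shisal2b (r = 0.94) and Dock4, a guanine nucleotide exchange factor of Rac (r = 0.93), beside 0.94 for Tex15. Next to Tex15 were Clcn3, a chloride and proton exchanger of endosomes (r = 0.97), Arhgap5 (r = 0.96) and Tmem87a (r = 0.95). Their likeness to Tex15 remained in the deviations from group means, with r of 0.93, 0.91 and 0.89.

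Next to Rgs13 were Fhdc1, a formin-type protein (r = 0.95), Greb1l (r = 0.94) and Gja1, which encodes the gap junction protein connexin 43 of GCs (r = 0.94). Gja1 had mean levels of 16890 CPM in CT db, 13580 in db/db, 6072 in CT ob and 11010 in ob/ob, the same order of groups as Rgs13. Next to Phex were Ddc, the aromatic amino acid decarboxylase (r = 0.91), Tril, a modulator of Toll-like receptor signalling (r = 0.91), and Dgat2, an enzyme of triglyceride synthesis (r = 0.91). The mean of Dgat2 was 10.7 CPM in CT ob and 34.4 to 41.3 CPM in the other groups. Among the 4 genes themselves, Tex15 ranked 3 in likeness to Fam81a and Fam81a ranked 13 in likeness to Tex15, while Phex ranked 635 for Rgs13 and Rgs13 ranked 380 for Phex. These ranks include the CT ob and ob/ob libraries, with which the genes were picked.

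The nearest tested genes on the chromosomes had smaller log2 differences in the ob model than the 4 genes, from -0.71 to 0.83. As the 4 genes were picked with this contrast known and the neighbours were not, nothing is read from the smaller size. Gtf2a2, which encodes a subunit of the general transcription factor IIA and lies 65596 bp from Fam81a, came closest, with r of 0.84 to Fam81a and means of 187 CPM in CT ob and 333 CPM in ob/ob. Its log2 difference ob/ob minus CT ob was 0.83 (SE 0.196, edgeR quasi-likelihood adjusted p = 0.539). On the other side, 64790 bp away, Myo1e had r of 0.52. Ppp2cb and Purg, next to Tex15, had r of 0.02 and 0.21, and Acot9 and Sms, next to Phex, had -0.42 and 0.26. Rgs2, a member of the same family as Rgs13 and 134493 bp away from it, had r of -0.34 to Rgs13, and Pla2g4a, 5652259 bp away, had 0.59. None of these 8 neighbours was called in either model.

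The relatives of the 4 genes, taken as 7 lists, were not called in either model by edgeR or DESeq2 on the filtered genes. Of 20 other RGS genes in the table, 7 were tested for db and 8 for ob mice, and 0 were called higher or lower, with 1 gene at an unadjusted p under 0.05 in each model. Their median log2 difference was 0.23 for db/db against CT db and -0.13 for ob/ob against CT ob, beside 0.01 and -0.04 over all genes tested. Rgs2, which acts on Gq signalling, was the most abundant with a mean of 1220 CPM, and per kb it reached 336 CPM beside 51.1 CPM for Rgs13. Its log2 difference was -0.71 in the ob model (SE 0.366, edgeR quasi-likelihood adjusted p = 0.656). Rgs11 had a mean of 97.4 CPM and differed by 1.16 in the ob model (SE 0.381, edgeR quasi-likelihood adjusted p = 0.561). A further 7 RGS genes had at most 3 counts in every library. The 12 G alpha subunit genes, which encode the GTP-binding partners of G protein-coupled receptors, had 8 and 10 tested, 0 called and medians of 0.10 and 0.23 (log2 difference, db and ob model). Gnai3 at 249 CPM and Gna11 at 140 CPM had the highest measured means. Gnas had only 2 to 38 counts per library, and whether its reads were lost to overlapping genes was not tested.

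Around Phex, 6 other M13 peptidases were measured, 2 were tested for db and 3 for ob mice, and 0 were called, with median log2 differences of 0.59 and 0.45. Ece1, the endothelin-converting enzyme, led them with 283 CPM, and Mme (neprilysin) had 5.17 CPM. Of 16 phosphate and mineralization genes, 7 and 6 were tested and 0 were called, with medians of 0.001 and -0.045. The bone genes Fgf23, Dmp1 and Mepe and the renal phosphate transporters Slc34a1 and Slc34a3 had at most 3 counts in every library. Fam20c, a secretory kinase, had 98.1 CPM and the phosphate exporter Xpr1 had 78.8 CPM.

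Around Tex15, 16 genes of germline piRNA silencing and 23 of meiotic recombination were measured, with 1 and 8 tested for db mice, 6 and 10 for ob mice, and 0 called. The median log2 differences in the db and ob model were 0.07 and -0.16 for the piRNA genes and 0.09 and 0.16 for the recombination genes, of which 2 and 1 had an unadjusted p under 0.05. Tdrd5 stood out among the piRNA genes with 84.4 CPM, and Tdrd1 followed with 5.10 CPM. The recombination genes led with Brca2 at 171 CPM, which also serves DNA repair in dividing somatic cells. Spo11, Meiob, Spata22, Hormad1, Hormad2 and Syce1, which act in meiosis, had at most 3 counts everywhere. Brca2 differed by 0.59 in the ob model (SE 0.172, edgeR quasi-likelihood adjusted p = 0.539). For Fam81a, 16 genes of its own family and of postsynaptic scaffolds were measured, 7 were tested in each model and 0 were called, with medians of 0.32 and 0.23, led by Homer1 at 56.2 CPM and Dlg1 at 39.9 CPM.

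Several genes of GCs varied over the libraries with, or against, the 4 genes. Fshr had mean levels of 271 CPM in CT db, 227 in db/db, 82.3 in CT ob and 171 in ob/ob, and its r over the 14 libraries was 0.92 with Rgs13, 0.78 with Fam81a, 0.75 with Tex15 and 0.61 with Phex. For deviations from group means, the r of Fshr was 0.74 with Rgs13, 0.28 with Fam81a, 0.17 with Tex15 and 0.19 with Phex. Amh, which marks GCs of growing follicles, was highest in CT ob with 582 CPM beside 235 in CT db, 96.9 in db/db and 406 in ob/ob. Its r with the 4 genes was -0.67 to -0.73 over the libraries and -0.46 to -0.73 for deviations. Of genes looked at after their values were seen, Wt1, a transcription factor of GCs that falls as follicles grow, had 208 CPM in CT ob and 43.2 to 62.7 CPM in the other groups, with r of -0.61 to -0.83 and, for deviations, -0.35 to -0.69. Foxl2, a defining transcription factor of GCs, was highest in CT ob too, with a mean of 114 CPM beside 71.4 to 84.8 CPM in the other groups. The summed level of the 15 GC markers was 12420 to 17520 CPM in CT ob and 19510 to 30430 CPM in the other groups. Without Gja1 the sums overlapped, at 6540 to 11960 CPM in CT ob and 6989 to 17220 CPM in the other groups. Inha was the largest part of them, with a mean of 4686 CPM in CT ob and 4517 in CT db. Fst (647 CPM), Esr2 (273 CPM), Inhba, Inhbb, Cyp19a1, Nr5a1 and Nr5a2 also had their lowest mean in CT ob. In CT db, Fst had 1244 and Esr2 430 CPM. Amhr2, like Amh, Wt1 and Foxl2, had its highest mean in CT ob.

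**Figure D5:**
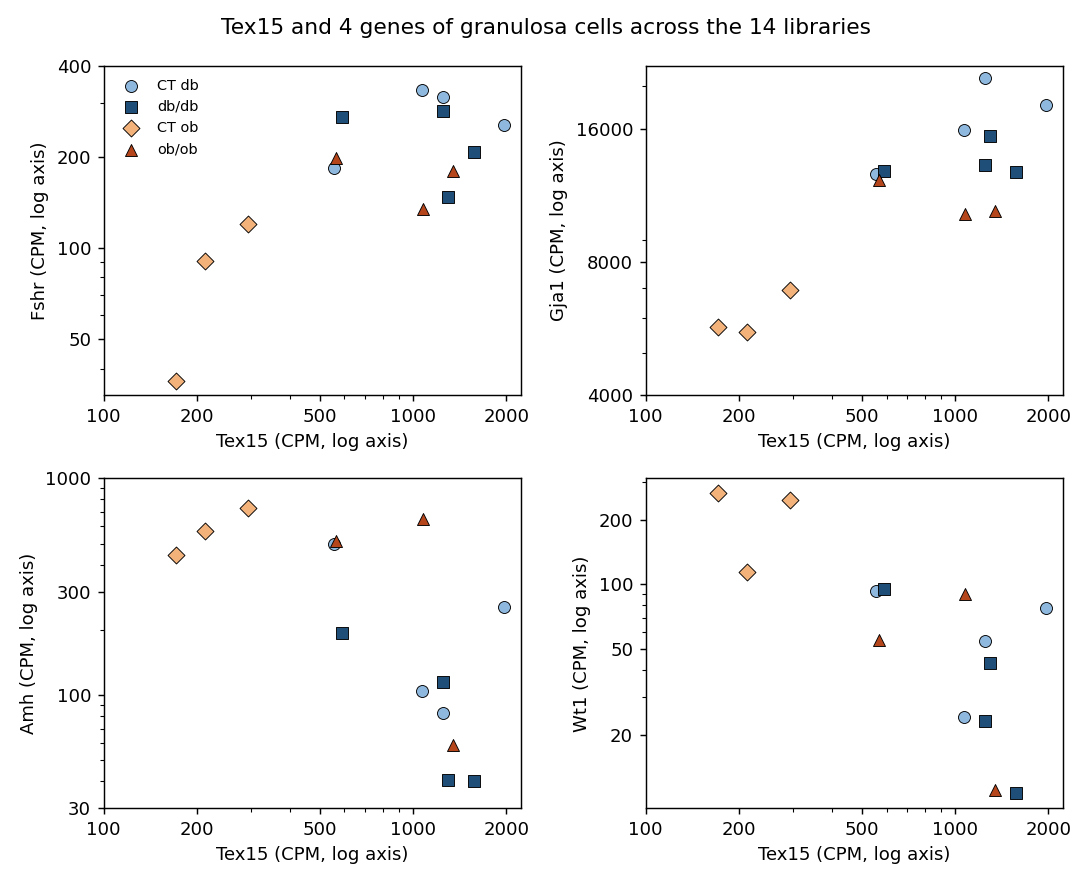
Level of Tex15 against Fshr, Gja1, Amh and Wt1 in CPM (all axes log) in the 14 libraries, marked by group. In CT ob low Tex15 goes with low Fshr and Gja1 and with Amh of 445 to 733 CPM, while ob/ob library 1 has 1073 CPM of Tex15 beside 647 CPM of Amh.

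Amh also varied within groups. CT db library 1, low for all 4 genes, had the most Amh of its group with 498 CPM, and db/db library 1 had the most Amh of db/db with 192 CPM. In ob/ob, library 2, highest for the 4 genes, had the least Amh with 58.6 CPM, while the most, 647 CPM, was in library 1 and not in library 3, which was lowest for the 4 genes and had 512 CPM. The part of these GC genes in the levels of the 4 was not tested.

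Markers of the oocyte varied by library. The sum over 18 oocyte markers was 6.76 to 372 CPM in CT db, 12.8 to 98.7 in db/db, 123 to 1557 in CT ob and 254 to 1199 in ob/ob. Between groups, Tex15, itself a germ cell gene, was lowest in CT ob, where library 1 had 171 CPM of Tex15 beside an oocyte sum of 1557 CPM. Within CT db, library 1 had the lowest oocyte sum and the lowest Tex15 (6.76 and 554 CPM), and library 2 the highest of both (372 and 1971 CPM). Within db/db, library 1 was lowest for both, with an oocyte sum of 12.8 CPM and 587 CPM of Tex15. The highest oocyte sum of db/db was in library 3 (98.7 CPM), but the highest Tex15 was in library 2 (1570 CPM). In ob/ob, library 3 was lowest for both (254 and 565 CPM). There the highest oocyte sum was in library 1 (1199 CPM) and the highest Tex15 in library 2 (1349 CPM). Over the 14 libraries, the r of Tex15 was -0.20 with Gdf9, -0.14 with Bmp15 and -0.32 with Zp3. For deviations from group means it was 0.55, 0.54 and 0.47, and the part of oocyte RNA in the spread of Tex15 was not tested.

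Markers of other cells were low beside those of GCs. Sums over 7 endothelial markers were 22.8 to 46.3 CPM in CT ob and 4.50 to 14.1 CPM in the other groups, and those over 11 leukocyte markers were 1.97 to 11.6 CPM, with 4 of the 11 at 3 counts or fewer everywhere. The 11 markers of theca and stroma summed to 62.0 to 186 CPM in all libraries but db/db library 1, which had 407 CPM. Pecam1 was at most 9.47 CPM, Col1a1 at most 13.5 CPM and the theca gene Cyp17a1 at most 256 CPM. Sums of luteal markers were 228 to 1371 CPM, those of cumulus markers 901 to 1654 CPM and those of mural markers 22.0 to 253 CPM, with ranges that overlapped between the 4 groups. Their part in the levels of the 4 genes was not tested.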

How the data were processed

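The libraries were made from about 50 GCs with a Smart-seq2 type protocol and sequenced as single reads of 75 bp. The deposited values were whole-number counts per gene without normalization. According to the methods, the authors trimmed with cutadapt, mapped with STAR to GRCm39 and counted with featureCounts, whereas the submitters' processing notes name Trim Galore 0.6.2, HISAT2 2.1.0 and GRCm38. The difference remained unsettled, and strand and multimapping settings were not given in the sources used here. Overlapping or similar genes may therefore share reads.

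The 14 columns were assigned to groups by their names. Positions came from GENCODE for GRCm39, with a symbol for 98.8% of 55414 identifiers. In edgeR 4.0.16 (R 4.3.3), genes were kept by filterByExpr (minimum count 10, minimum total 15), scaled by TMM and tested by quasi-likelihood within each model. Comparisons between models used 1 fit of all libraries. An adjusted p of 0.05 or less was called. DESeq2 1.42.0 was an alternative. Log2 CPM used a prior count of 2. Correlations and single genes were tested by exact permutation in Python 3.11.15. The edgeR test, but not the permutation tests, was checked on simulated data. No library was left out, and correlations across genes between libraries were 0.942 to 0.979, with 0 identical pairs.

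The 4 genes, the lists of related genes and markers, and the motifs were chosen with earlier results of these data known. Named genes were the 4 members, the 3 genes most like each by Pearson's r over 14 libraries, the nearest tested gene on each side, the 2 most abundant genes of each related list and any called one, and defining markers. A further gene under this rule is not reported here. Others named (Wt1 and further GC markers, Sfrp4, members of lists with few counts and genes called under an alternative) were chosen after their values were seen. The relatives were RGS genes, G alpha subunits, M13 peptidases, phosphate handling, germline piRNA silencing, meiotic recombination, and FAM81 genes with postsynaptic scaffolds. Alternatives were other scalings, filters, DESeq2, 1 fit of all libraries and leaving out each library. After seeing the data, other scalings of the group levels and the related lists under the count alternatives were added.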

Additional observations from a re-analysis of the deposited data

Results flagged for a closer look

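The log2 difference of Rgs13 had opposite signs in the 2 models, but in the db model it did not pass the test (edgeR quasi-likelihood adjusted p = 0.684). All 4 db/db libraries (87.8 to 100 CPM) were below the CT db mean of 169 CPM, with a log2 difference of -0.84 (SE 0.447), and all 3 ob/ob libraries (28.1 to 47.4 CPM) were above the CT ob mean of 8.95 CPM, with a log2 difference of 1.96 (SE 0.515). The gene was chosen with the ob model known, and the difference between the models was not tested. The values of db/db and CT db overlapped, since CT db library 1 had 32.9 CPM. The other 3 genes did not show opposite directions in all mutant libraries, and no library of a group of 4 lay far from the rest of its group in any of the 4 genes by Dixon's criterion.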

How the results depend on the processing

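No paired analysis was possible because the columns of the count table carry no replicate numbers of the sample labels. Of 378 values recomputed under alternatives, 350 kept their direction and their side of the threshold or moved by less than the spread. The log2 difference ob/ob minus CT ob stayed positive in each case, between 1.61 and 1.93 (Fam81a), 1.85 and 2.42 (Tex15), 1.54 and 2.66 (Rgs13) and 1.71 and 2.48 (Phex) when single libraries were left out.

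The numbers of genes called depended on the tool and filter. In the db model 1 gene was called in the fit as reported, 44 by DESeq2, 2 with library totals only (Atrnl1 and Sfrp4), 270 with every gene of at least 1 count, and 0 with at least 10 counts in every library or with 1 fit of all 14 libraries. In the ob model, edgeR called 0 and DESeq2 called 86 of the 12425 genes tested. The fit of every gene with at least 1 count called 359. How many genes entered the fits behind 270 and 359 is not given here, so these counts have no share beside them. All 4 genes were among the 86 and among the 359. The 1 fit of all 14 libraries called 1 of 12586 genes, Fam81a. Since the 4 genes were picked with this contrast known, these calls are no test of them. With every gene of at least 1 count, 1 related gene was called in the db model (Mme) and 4 in the ob model (Spp1, Kel, Rgs9 and Rgs11). Rgs13 was called in the db model under that setting alone, at -0.87. Tex15 in the db model turned to 0.0385 with library totals only, and Phex to -0.0124 with every gene of at least 1 count. The cause was not tested.

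Leaving out single libraries gave 1 to 4 called genes in the db model (4 without db/db library 3, which were C7, Cd83, Col11a1 and Sfrp4), and a log2 difference of -0.29 to 0.29 for Tex15 and -0.28 to 0.41 for Phex. In the db model, r ranged from 0.41 to 0.86 for Fam81a and Tex15, from 0.27 to 0.90 for Fam81a and Phex, and from -0.43 to 0.54 for Fam81a and Rgs13. The r of deviations ranged from 0.59 to 0.84 for Fam81a and Phex, 0.25 to 0.73 for Rgs13 and Phex, 0.53 to 0.85 for Tex15 and Phex, and 0.24 to 0.69 for Tex15 and Rgs13. Other scalings moved no group mean of the 4 genes by more than its SD. Depth limits Rgs13 most in CT ob, where 1 library had 17 counts. Phex had 27 to 43 counts in the CT ob libraries.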
